A study of Drosophila melanogaster with 14 samples.

Results

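The comparison was between the control embryos of the *sgg* isoA experiment (isoA controls, 3 samples) and the control embryos of the *sgg* isoB experiment (isoB controls, 4 samples), which made up 7 of the 14 samples of the series. All 7 were whole *Drosophila* embryos aged 10 to 15 h that carried no deletion in *sgg*, the fly gene for Glycogen Synthase Kinase 3. The count table names all 7 attP40, for the stock in which the isoform deletions had been made (the progenitor). The isoA controls were all embryos of that stock, with no selection. The isoB controls were, by the labels and the methods, the non-fluorescent embryos of a cross between females carrying the progenitor X chromosome over the balancer FM7-GFP and FM7-GFP males. The study's results text, by contrast, names the progenitor stock as the source of these controls, and the labels were followed here. FM7-GFP is an X chromosome balancer (FM7c) that carries GAL4 under a *twist* promoter and a UAS-EGFP transgene. In such a cross every daughter receives the balancer from her father, so that an embryo without fluorescence is, by the scheme, a son with the progenitor X chromosome. The isoB controls also had mothers that were heterozygous for the balancer, whereas the isoA controls had not. Their fathers carried FM7-GFP, so the scheme assigns only the X chromosome of the isoB controls to the progenitor. The autosomes of the isoB controls can therefore differ in background from those of the isoA controls. The other 7 samples were collected by the same schemes from mutants that lack the terminal exon of 1 isoform class, and served as a second pair of groups: 3 samples of isoA null embryos from a homozygous stock, and 4 samples of isoB zygotic null embryos, the non-fluorescent progeny of *sgg* isoB/FM7-GFP females and FM7-GFP males. The methods describe injection of a THattP40 line with *nos*-Cas9, and a cross of the surviving adults to another laboratory stock before balancing. The null stocks can therefore differ from the controls in background as well as in *sgg*. The stock or cross, the selection by fluorescence and the experiment each differed between the isoA and the isoB controls as whole groups. The sex of the embryos differed by the scheme, and no label gives it. The parts of these differences cannot be told apart.

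Between 10 and 15 h after egg laying, *Drosophila* embryos complete germ band retraction and dorsal closure, muscles and neurons differentiate, and the epidermis begins to lay down the larval cuticle. Most of the RNA is by then zygotic, and maternal transcripts have largely been degraded. Because these stages follow each other quickly, the level of a stage-dependent transcript in such a collection also follows the spread of ages within it. The proteins of the eggshell, by contrast, are made by the ovarian follicle cells of the mother and not by the embryo.

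Total gene counts ran from 8082962 to 12800846 in the isoA controls (median 11644850) and from 11189291 to 23798611 in the isoB controls (median 22620698.5). Differences among levels under 3 counts per library were not interpreted, and 3 counts equalled 0.235 to 0.367 CPM (counts relative to library size, with TMM factors) in the isoA controls and 0.125 to 0.271 CPM in the isoB controls. Replicates were less alike among the isoA controls, with a chi-squared per gene between pairs of 27.0 to 51.6 against 13.1 to 24.0 among the isoB controls, and no libraries were identical. The study describes the isoA experiment as done in triplicate biological replicates. It does not say for either group whether the samples were separate collections. The p-values therefore measure the spread between these samples, which may in part be technical.

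Of the isoA controls, 2 libraries stood apart on small groups of genes, and results that rest on them are given with and without them. Replicate 2 held RNAs that a poly(A) selection largely removes. The 28S ribosomal RNA pseudogene *28SrRNA-Psi:CR40596* had 38.5, 7787 and 211 CPM in isoA controls 1, 2 and 3, against 44.2, 26.1, 29.6 and 55.5 CPM in isoB controls 4 to 7. The nuclear RNA *snRNA:7SKa* had 0.704, 108 and 3.44 CPM in the isoA controls, and 0.307 to 1.10 CPM in the isoB controls. Replicate 3 alone held several transcripts at a high level. Examples are the unnamed genes *CG7299*, with 16.7, 5.75 and 719 CPM in the isoA controls and 12.6 to 17.2 CPM in the isoB controls, and *CG32603*, with 2.89, 0.735 and 430 CPM in the isoA controls and 0.659 to 3.41 CPM in the isoB controls. In the odorant binding protein gene *Obp56a* the isoA controls had 24.8, 31.0 and 593 CPM, and the isoB controls 7.15 to 10.8 CPM. Without replicate 3 *Obp56a* was still higher (log2 fold change 1.67, edgeR adjusted p = 0.00256), while *CG7299* and *CG32603* were at -0.30 and -0.054 and were not called.

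The fold changes also followed the length of the genes. The 10244 tested genes with an annotated exon length were divided into 5 classes of equal size. The class with the shortest exons (65 to 1134 bp) had a median log2 fold change of 0.35, and the medians of the following classes were 0.19, 0.08, -0.07 and, for exons of 4078 to 71820 bp, -0.26. The shortest class less the longest, measured in each sample on log2 CPM relative to the mean of all samples, was 0.29, 0.32 and 0.68 in isoA controls 1, 2 and 3, and -0.16, -0.03, -0.18 and -0.14 in isoB controls 4 to 7. The groups did not overlap (0.43 ± 0.22, n = 3, and -0.13 ± 0.07, n = 4, mean ± SD), with p = 0.0571 in a two-sided exact permutation test, the smallest that 3 samples against 4 allow. The null samples of the same collection schemes differed in the same direction, with 0.11 ± 0.12 (SD, n = 3) in the isoA null and -0.29 ± 0.12 (SD, n = 4) in the isoB zygotic null. The gene lists described below with calls are therefore also given with the length trend of each sample removed, an alternative chosen after the data were seen. The counts by gene type and by chromosome arm are given without it. The part of the length trend in any single result was not tested otherwise.

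**Figure D1:**
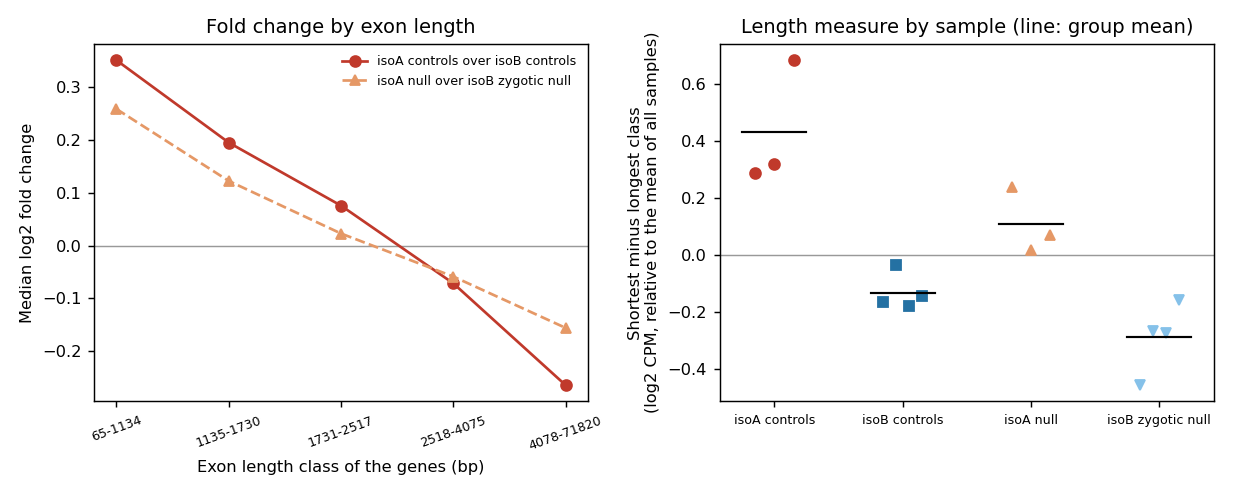
Left, median log2 fold change (y) of the tested genes in 5 classes of exon length in bp (x), for isoA controls over isoB controls (circles) and for isoA null over isoB zygotic null (triangles). Right, the difference in log2 CPM between the shortest and the longest class in each sample, with the group mean as a line. The medians of the controls fall from 0.35 in the shortest class to -0.26 in the longest, and each isoA control lies above each isoB control.

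The most abundant transcripts were ranked per kb of exon by the mean over the 7 samples, and their order differed in part between the groups. The large ribosomal RNA of the mitochondrion *mt:lrRNA* led with 62704 CPM per kb in the isoA controls and 40577 CPM per kb in the isoB controls. It was followed by the ribosomal protein gene *RpL41* (8928 and 4846 CPM per kb), the muscle actin *Act57B* (4565 and 4928 CPM per kb) and the elongation factor *eEF1alpha1* (4095 and 3215 CPM per kb). The ribosomal protein genes *RpL27A*, *RpLP2*, *RpLP1*, *RpS27A* and *RpL23* and the epidermal gene *Osi6* completed the first 10 of this ranking. Of these 10 only *RpL41* was called, at a log2 fold change of 0.91 (standard error, SE, 0.23, edgeR adjusted p = 0.0288). The value rested on isoA control 3, where *RpL41* had 4332 CPM, against 2194 and 2045 CPM in isoA controls 1 and 2 and 1446 to 1666 CPM in the isoB controls, and it was 0.48 without that library. The call was also lost without any of the isoB controls, and with the length trend removed (0.32, edgeR adjusted p = 0.366). The tissues expected in a whole embryo of this age were present in every sample. The summed level of the muscle sarcomere list was 29310 to 32504 CPM in the isoA controls and 31107 to 37471 CPM in the isoB controls, that of the neuronal and synaptic list 3172 to 4117 and 4103 to 4611 CPM, and that of the hemocyte list 5737 to 6417 and 6958 to 7887 CPM.

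Of the 10324 genes tested, 823 were called (7.97%), which required an adjusted p no higher than 0.05 together with a log2 fold change whose size was 0.7 or more. In the isoA controls 562 were higher (5.44%) and 261 lower (2.53%). With the length trend removed the count was 440, 222 higher and 218 lower, and 387 of these were among the 823. The ranges of the isoA and isoB controls were apart for 759 of the 823, as they were for 35.7% of all genes tested. The number called fell to 530, 427 and 369 without isoB control 5, 6 or 7, was 564 without isoA control 3, and 282 genes (176 higher and 106 lower) kept their call in each of the 7 fits that omit a sample. The change was over 4-fold in 144 genes, 108 of them higher and 36 lower. An unadjusted p below 0.05, which is not a call, was found for 4092 of the 10324 genes tested. By gene type, 757 of 9941 protein coding genes were called (7.61%), against 44 of 243 non-coding RNA genes (18.1%) and 12 of 35 pseudogenes (34.3%).

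The genes with the largest differences were close to all-or-none. The chorion protein gene *Cp36* (FBgn0000359, X, 8479319 to 8480523), which encodes a component of the eggshell, had 2.50, 8.20 and 6.07 CPM in the isoA controls and no counts in any isoB control, and was at least 33.9-fold higher (edgeR adjusted p = 0.00348). *Tengl3*, an endonuclease G-like gene on 2L, had 2.11, 2.45 and 3.89 CPM in the isoA controls and no counts in the isoB controls, and was at least 17.1-fold higher (edgeR adjusted p = 0.00258). The pseudogene *CR43105* (FBgn0262565, 2R, 15374846 to 15375702) had 12.2, 15.7 and 13.9 CPM in the isoA controls, against 0.0416, 0.0904, 0.0878 and 0 CPM in the isoB controls. It was at least 84.3-fold higher (edgeR adjusted p = 3.24e-05), the highest such bound among the named genes, and the pseudogene next to it, *CR43186*, was at least 10.9-fold higher. All of these also separated the null samples. *Cp36* had 25.2, 20.6 and 11.1 CPM in the isoA null and at most 0.143 CPM in the isoB zygotic null, *Tengl3* had 4.03, 2.67 and 2.26 CPM and at most 0.0818 CPM, and *CR43105* had 5.27, 4.50 and 3.77 CPM and at most 0.123 CPM.

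Other genes among the largest rises were at low levels in the isoA null samples. The gene *lcs* (X, 21396727 to 21397316) had 3.83, 1.35 and 3.71 CPM in the isoA controls and no counts in the isoB controls, at least 18.0-fold higher (edgeR adjusted p = 0.00421), while it had at most 0.0629 CPM in the isoA null and 0.50 CPM in the isoB zygotic null. The homeobox gene *vis* (2R, 12507896 to 12510615) had 2.97, 2.33 and 3.26 CPM in the isoA controls and at most 0.0439 CPM in the isoB controls, and was at least 17.3-fold higher (edgeR adjusted p = 0.000426). In the isoA null *vis* had 0.103 to 0.377 CPM and in the isoB zygotic null 0.0818 to 0.162 CPM, and its difference between the controls differed from that between the nulls (interaction test of edgeR, adjusted p = 0.00294). *vis* has a near-identical tandem neighbour, *achi*, from which its reads may not be separated, and *achi* itself had 4.85, 4.29 and 6.88 CPM in the isoA controls and 5.99, 4.52, 5.27 and 5.23 CPM in the isoB controls. The unnamed gene *CG13946* had 4.38, 2.69 and 1.18 CPM in the isoA controls and at most 0.0879 CPM in the isoB controls, at least 16.7-fold higher (edgeR adjusted p = 0.00261). It had 0.103, 0.262 and 0.189 CPM in the isoA null and no counts in the isoB zygotic null, and its interaction was not called (1.66, edgeR adjusted p = 0.802).

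The largest rises of 2 more genes were uneven between the isoA controls. The Jonah serine peptidase *Jon99Fi* had 0.861, 2.57 and 28.2 CPM in the isoA controls and at most 0.181 CPM in the isoB controls. It was at least 63.9-fold higher by the group means (edgeR adjusted p = 0.0118), but this mean is carried by isoA control 3. Without that library the fitted log2 fold change, which depends on the prior count, was 4.58 against 7.24 with it, and the gene was still called (edgeR adjusted p = 0.0127). The unnamed gene *CG12310* had 39.1, 4.04 and 164 CPM in the isoA controls and 1.25, 1.45, 1.63 and 1.10 CPM in the isoB controls. Its log2 fold change was 5.71 (SE 0.98, edgeR adjusted p = 0.00913) and 4.04 without isoA control 3. In both genes the lowest isoA control was above the highest isoB control. Between the nulls *Jon99Fi* was not tested. It had at most 0.126 CPM in the isoA null and 0.170 CPM in the isoB zygotic null. *CG12310* was not called between the nulls (0.83, edgeR adjusted p = 0.137). The interaction of edgeR was called for neither *Jon99Fi* (adjusted p = 0.0763) nor *CG12310* (adjusted p = 0.0542).

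Among the falls, the maltase gene *Mal-B1* (FBgn0032381, 2L, 11847226 to 11849169), whose product splits sugars from maltose and related substrates, had 0.704, 0.245 and 0.453 CPM in the isoA controls and 7.32, 11.3, 6.68 and 7.47 CPM in the isoB controls. The log2 fold change was -4.01 (SE 0.37, edgeR adjusted p = 0.000823). The isoA controls stood alone in this: the isoA null had 9.46, 11.1 and 9.0 CPM and the isoB zygotic null 10.1, 10.9, 6.74 and 10.5 CPM, and the difference between the controls differed from that between the nulls by -4.08 (edgeR interaction test, adjusted p = 9.02e-05). No other of the 7 tested maltase genes was called. The antisense gene *asRNA:CR45600* (3R, 15136985 to 15140121) had 0.469, 0.367 and 0.362 CPM in the isoA controls and 18.3, 21.1, 13.7 and 15.3 CPM in the isoB controls, a log2 fold change of -5.35 (SE 0.27, edgeR adjusted p = 3.24e-05). In the nulls it had 8.02, 7.75 and 4.72 CPM (isoA null) and 9.61 to 12.9 CPM (isoB zygotic null), and the interaction was -4.60 (edgeR adjusted p = 9.95e-06). It overlaps exons of *CG6912*, *CG3984* and *CG3987*, and since the counting ignored strand its reads are uncertain. *CG6912* was also lower in the isoA controls (log2 fold change -1.49, SE 0.19, edgeR adjusted p = 0.00308), *CG3987* had a value of 0.11 (edgeR adjusted p = 0.575), and *CG3984* had no counts.

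The other 6 of the 8 largest falls among genes with a mean of at least 1 CPM were also found between the nulls. *CG44102*, below that mean level, was at least 4.12-fold lower in the isoA controls and at -0.14 on the log2 scale between the nulls (edgeR interaction test, adjusted p = 0.0367). The dynein light chain gene *robl37BC*, a relative of *roadblock*, had 0.548, 0.122 and 0.181 CPM in the isoA controls and 6.07, 6.78, 6.28 and 6.24 CPM in the isoB controls, a log2 fold change of -4.31 (SE 0.39, edgeR adjusted p = 0.000823), and was at -3.77 between the nulls. The long non-coding RNA *lncRNA:CR9284* (2R, 21803402 to 21804338) had 0.156, 0 and 0 CPM in the isoA controls and 1.37, 5.70, 4.35 and 10.1 CPM in the isoB controls, at least 18.5-fold lower (edgeR adjusted p = 0.00856). It had no counts in the isoA null and 7.14, 10.9, 7.89 and 8.39 CPM in the isoB zygotic null. The pseudogene *CR42530* was at least 9.09-fold lower, *CG18367* at least 8.76-fold lower, *CG30485* at least 8.06-fold lower and the cystatin-like protease inhibitor gene *Cys* at least 6.26-fold lower, and each was also called lower in the isoA null than in the isoB zygotic null. *CG30485* overlaps *Echs1* and *Cys* an antisense gene, so reads in the shared stretches are missing from these counts. *CG18367* was lower by more between the controls than between the nulls (edgeR interaction test, adjusted p = 0.0239).

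**Figure D2:**
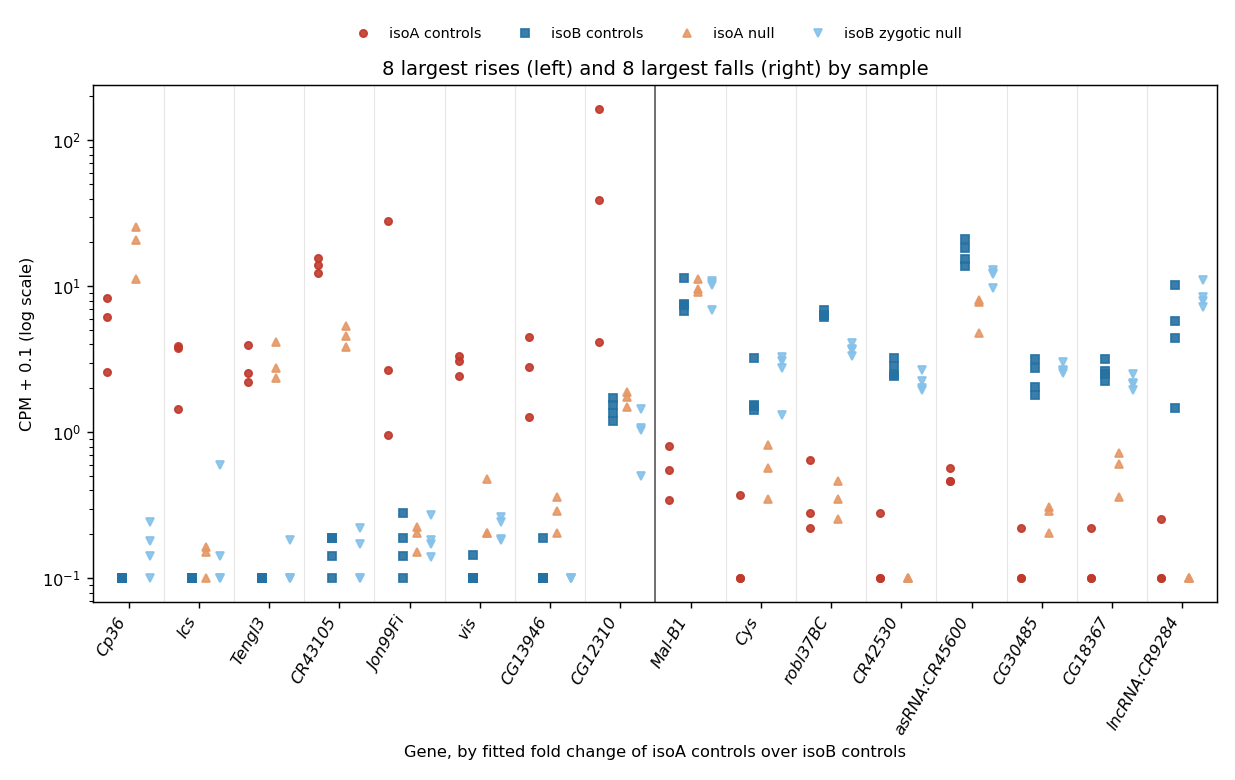
CPM plus 0.1 on a log axis (y) of the 8 genes with the largest rises, left of the dark line, and the 8 with the largest falls, right of it (x), with a point for each sample in isoA controls, isoB controls, isoA null and isoB zygotic null. A value of 0.1 stands for no counts. The isoA null samples lie with the isoA controls in *Cp36*, *Tengl3*, *CR43105*, *robl37BC*, *CR42530* and *lncRNA:CR9284*, and with the isoB controls in *Mal-B1*.

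The target of the study, *sgg* (FBgn0003371, X, 2633952 to 2679553), was counted over all of its exons. Its level was 262, 269 and 192 CPM in the isoA controls and 384, 326, 350 and 356 CPM in the isoB controls, 241 ± 42.3 CPM (SD, n = 3) and 354 ± 23.7 CPM (SD, n = 4). The groups did not overlap. The log2 fold change was -0.53 (SE 0.13, edgeR adjusted p = 0.0227), which is under the fold required for a call, and it was -0.39 without isoA control 3. With the length trend removed it was -0.14 (edgeR adjusted p = 0.375). In the isoA null *sgg* had 262 to 324 CPM and in the isoB zygotic null 261 to 340 CPM. *sgg* overlaps *lncRNA:CR45197*, and reads shared between them were not counted.

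The crossing scheme selects sons for the isoB controls, and genes of the sex determination and dosage compensation pathways were therefore examined. In flies the X to autosome ratio sets the state of *Sxl*, which acts on *tra* by splicing and on *msl-2* by translation, and the roX RNAs are made in males, where they coat the X chromosome. No dosage compensation gene was called among 8 tested (edgeR; 0 at an unadjusted p below 0.05, and 0 called by DESeq2 or limma-voom). *lncRNA:roX1* had 837, 448 and 665 CPM in the isoA controls and 444, 604, 594 and 617 CPM in the isoB controls (log2 fold change 0.23, SE 0.20, edgeR adjusted p = 0.408). *lncRNA:roX2* had 17.5, 12.6 and 13.3 CPM in the isoA controls and 9.19, 13.3, 11.5 and 11.2 CPM in the isoB controls (0.39, SE 0.18, edgeR adjusted p = 0.133). The groups thus overlapped for each roX RNA, and neither had a higher mean in the isoB controls. The means were 650 and 565 CPM for *lncRNA:roX1* and 14.5 and 11.3 CPM for *lncRNA:roX2* (isoA and isoB controls). The sex of the embryos was not tested otherwise. The values were -0.27 for *msl-2* (edgeR adjusted p = 0.257), -0.42 for *Sxl* (edgeR adjusted p = 0.0579) and 0.08 for *tra* (edgeR adjusted p = 0.743), counted over whole genes, so that sex-specific splice forms are not separated. Of the 14 sex determination genes, the X-linked numerator gene *run* was called, at -0.71 (SE 0.15, edgeR adjusted p = 0.016), and it lost the call without isoA control 2 (-0.70) or 3 (-0.63) or isoB control 6 or 7, and with the length trend removed (-0.66).

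Of 12 Y-linked genes in the table only *FDY* had enough counts to be tested. It had 5.16, 2.69 and 2.35 CPM in the isoA controls and 1.16, 1.45, 0.659 and 0.659 CPM in the isoB controls, and was higher at a log2 fold change of 1.87 (SE 0.40, edgeR adjusted p = 0.0167). Without isoB control 6 or 7 the log2 fold change was 1.72 or 1.71 and the call was missed (edgeR adjusted p = 0.0515 and 0.0546). With the length trend removed it was 1.64 (edgeR adjusted p = 0.0432). *FDY* is a recent duplicate of the autosomal gene *vig2*, and reads may not be separated between them. Of the X-linked genes, 73 of 1660 were called (4.40%), against 731 of 8473 on the large autosome arms (8.63%). The share of all counts on the X chromosome was 14% ± 0.0687 (SD, n = 3) in the isoA controls and 14.8% ± 0.198 (SD, n = 4) in the isoB controls (two-sided exact permutation p = 0.0571, adjusted p = 0.129 over 9 chromosomes). A lower share was not particular to the X. The share of 3L was 16.4% and 17.3% and that of 3R 21.9% and 23.2%, both without overlap (exact permutation p = 0.0571 for each). The mitochondrial genome had a higher share in the isoA controls. Among nuclear genes alone the X chromosome share was 15.5% and 15.8% (exact permutation p = 0.229). The median log2 fold change was -0.01 on the X and 0.04 on the autosome arms.

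The marker genes of fly stocks gave 2 calls among 11 tested. *y*, which is required for black pigment and is mutated on many laboratory X chromosomes, had 37.9, 35.6 and 33.2 CPM in the isoA controls and 14.7, 18.1, 18.1 and 16.4 CPM in the isoB controls. The log2 fold change of *y* was 1.11 (SE 0.12, edgeR adjusted p = 0.00178), and 1.38 between the nulls (edgeR adjusted p = 0.00964). *w*, the transporter of eye pigment precursors, had 23.2, 23.0 and 22.5 CPM in the isoA controls and 41.0, 35.2, 33.0 and 42.6 CPM in the isoB controls, a log2 fold change of -0.70 (SE 0.12, edgeR adjusted p = 0.00991). It stood at the fold threshold and lost its call without isoA control 3 (-0.69) or isoB control 4 or 7. In both genes the groups did not overlap. With the length trend removed *y* was at 1.02 (edgeR adjusted p = 0.00319) and *w* at -0.75 (edgeR adjusted p = 0.0115).

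Over all genes tested 7.97% were called. The counts in the lists of this and the following paragraphs were not tested against that share. Genes of the eggshell were the list with the highest median among tested genes, a ranking that depends in part on the filter described below. Of 23 eggshell and yolk protein genes counted, 11 passed the filter on low counts and were tested. Of these, 8 were higher in the isoA controls and none lower. Their median log2 fold change was 2.08 against 0.03 over all genes, and 7 were called with the length trend removed. *Cp36*, *Cp38*, *Vm34Ca* and *Vm26Aa* had at most 7 counts in any isoB control, under the minimum count of 10. They passed the filter through the isoA controls, so the number called and the median depend in part on the filter. With single samples left out 5 to 8 were called. The summed level of the list was 29.0 to 82.7 CPM in the isoA controls and 14.6 to 19.8 CPM in the isoB controls, against 89.6 to 145 CPM in the isoA null and 22.1 to 24.6 CPM in the isoB zygotic null. The chorion gene *Cp38* had 1.10, 9.06 and 6.25 CPM in the isoA controls and 0.291, 0.362, 0 and 0.0439 CPM in the isoB controls (log2 fold change 5.10, SE 0.90, edgeR adjusted p = 0.01). *Vm34Ca* and *Vm26Aa* encode proteins of the vitelline membrane, the inner layer of the eggshell. *Vm34Ca* was at least 7.97-fold higher and *Vm26Aa* had a log2 fold change of 4.18 (SE 0.59, edgeR adjusted p = 0.00469). *Cp15*, a chorion gene of another cluster, had 1.49, 1.22 and 1.81 CPM in the isoA controls and 0.264 to 0.582 CPM in the isoB controls (1.89, SE 0.36, edgeR adjusted p = 0.0121), and its difference was larger between the nulls (5.49, edgeR interaction test, adjusted p = 0.0085).

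The 3 other called genes of this list, *clos*, *fs(1)M3* and *fs(1)N*, act in the vitelline membrane in the terminal patterning system. *clos* had 4.38, 10.2 and 12.6 CPM in the isoA controls and 2.33 to 4.00 CPM in the isoB controls (log2 fold change 1.59, edgeR adjusted p = 0.0188). *fs(1)M3* had 1.96, 5.75 and 15.2 CPM in the isoA controls and 0.703 to 2.37 CPM in the isoB controls, and *fs(1)N* had 2.97, 10.9 and 21.4 CPM in the isoA controls and 1.19 to 4.96 CPM in the isoB controls. For both the groups overlapped, and without isoA control 3 the adjusted p from edgeR was 0.109 for *fs(1)M3* and 0.185 for *fs(1)N*. Of 31 maternal and germ plasm transcripts tested, 3 were called higher, the germ cell helicase *vas* and the RNA regulators *exu* and *bru1*. This is 9.68%, near the 7.97% of all genes tested. The median of the 31 was 0.28, and 2 were called with the length trend removed (median 0.26). None was called higher without isoA control 2 or 3, while 8 were without isoA control 1. DESeq2 called 6 higher and limma-voom 0. *exu*, which acts in the localization of maternal mRNA, had 9.0, 26.7 and 52.4 CPM in the isoA controls and 6.03, 6.24, 14.4 and 5.62 CPM in the isoB controls (1.88, SE 0.54, edgeR adjusted p = 0.0384, and 1.15 with adjusted p = 0.147 without isoA control 3). *nanos* had 2.43, 16.9 and 24.9 CPM in the isoA controls and 9.40, 1.27, 11.3 and 3.03 CPM in the isoB controls (edgeR adjusted p = 0.263). Replicate 1 was the lowest of the isoA controls in *exu*, *nanos*, *vas*, *bru1*, *Cp36*, *Cp38*, *clos*, *fs(1)M3* and *fs(1)N*. In *Cp15*, *Vm34Ca* and *Vm26Aa* replicate 2 was the lowest, so the order was not shared by all of these genes. Between the nulls 13 of 31 maternal transcripts were higher in the isoA null.

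**Figure D3:**
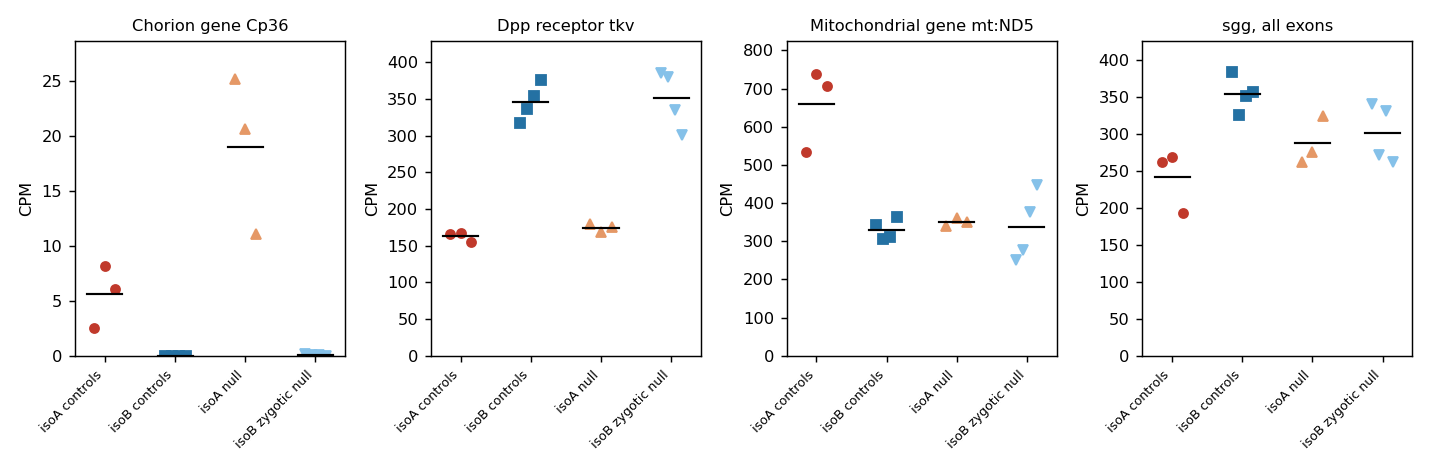
CPM (y) of *Cp36*, *tkv*, *mt:ND5* and *sgg* in each sample of isoA controls, isoB controls, isoA null and isoB zygotic null (x), with the group mean as a line. *Cp36* and *tkv* separate both pairs of groups, *mt:ND5* was 533 to 738 CPM in the isoA controls and 305 to 362 CPM in the isoB controls, and the mean of *sgg* was lowest in the isoA controls.

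RNAs of the mitochondrial genome, which encodes subunits of the respiratory chain, were higher in the isoA controls. Of 12 mitochondrial protein genes tested, 9 were called higher and all 12 had positive values, with a median log2 fold change of 0.98. Leaving out single samples gave 7 to 10 called. *mt:ND5*, a subunit of complex I, had 533, 738 and 706 CPM in the isoA controls and 342, 305, 311 and 362 CPM in the isoB controls (1.03, SE 0.13, edgeR adjusted p = 0.0026). *mt:ND4* of the same complex had 572, 728 and 718 CPM in the isoA controls and 311, 229, 303 and 356 CPM in the isoB controls (1.19, SE 0.15, edgeR adjusted p = 0.00301). In the oxidase subunit *mt:CoI* the isoA controls had 4169, 5751 and 4443 CPM and the isoB controls 3096 to 3696 CPM, a log2 fold change of 0.55, under the fold required. With the length trend removed 3 of the 12 were called and the median was 0.76. The share of all counts on the mitochondrial genome was 9.56% ± 0.522 (SD, n = 3) in the isoA controls and 6.25% ± 0.556 (SD, n = 4) in the isoB controls (two-sided exact permutation p = 0.0571, adjusted p = 0.129 over 9 chromosomes). Most of this share was the ribosomal RNA *mt:lrRNA*, with group means of 83020 and 53724 CPM, which was not called (log2 fold change 0.65). The protein genes summed to 11730 to 16404 CPM in the isoA controls and 7392 to 9906 CPM in the isoB controls. Between the nulls no mitochondrial protein gene was called of 13 tested by edgeR (0 by DESeq2), with a median of 0.10, and for *mt:ND5* the interaction had an adjusted p of 0.0508.

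Lists of housekeeping genes were higher by small amounts. Of 85 cytosolic ribosomal protein genes tested, 80 had positive values and the median was 0.27, but 4 were called higher and 1 lower, and with the length trend removed the median was -0.033 and 1 was called lower, while 1 to 5 were higher with single samples left out. *RpL38* was among the higher ones, with 785, 673 and 1161 CPM in the isoA controls and 398, 522, 429 and 461 CPM in the isoB controls (log2 fold change 0.98, SE 0.18, edgeR adjusted p = 0.0108, and 0.68 without a call with the trend removed). The one lower gene was *RpS5b*, which has a paralogue, *RpS5a*, on the X. *RpS5b* had 121, 159 and 190 CPM in the isoA controls and 344, 286, 248 and 303 CPM in the isoB controls (-0.89, SE 0.16, edgeR adjusted p = 0.0114), and *RpS5a* had 1571 to 2137 CPM in the isoA controls and 1399 to 1667 CPM in the isoB controls (0.28, edgeR adjusted p = 0.105). No proteasome gene was called among 32 (edgeR; 7 at an unadjusted p below 0.05, and 0 called by DESeq2 or limma-voom), with a median of 0.31. With the trend removed it was 0.13 and 1 gene was called lower. All 14 glycolytic genes had positive values with a median of 0.48, and 3 were called. The median was 0.39 with the trend removed, where 1, *Eno*, was called. *Gapdh2* had 545, 479 and 684 CPM in the isoA controls and 294, 387, 362 and 318 CPM in the isoB controls (0.77, edgeR adjusted p = 0.0105), and *Eno*, the enolase, 369, 352 and 662 CPM in the isoA controls and 254 to 272 CPM in the isoB controls (0.83, edgeR adjusted p = 0.023). No glycolytic gene was called without isoA control 3, and 4 were without isoA control 1 or 2.

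Of 23 heat shock protein and chaperone genes tested, 7 were higher and none lower, with a median of 0.46. The median was also 0.46 with the length trend removed, where 4 were called higher, and 4 to 9 were called with single samples left out. *Hsp83*, the fly Hsp90, had 565, 614 and 1003 CPM in the isoA controls and 329, 348, 420 and 319 CPM in the isoB controls (log2 fold change 1.07, SE 0.19, edgeR adjusted p = 0.0108). Its co-chaperone *Stip1* had 82.2, 88.9 and 117 CPM in the isoA controls and 49.8, 57.5, 63.2 and 53.3 CPM in the isoB controls (0.81, SE 0.14, edgeR adjusted p = 0.00908, and 0.64 without isoA control 3). *Hsp68*, an inducible relative of Hsp70, had 4.30, 8.57 and 9.32 CPM in the isoA controls and 2.20, 2.89, 2.15 and 2.50 CPM in the isoB controls (1.63, SE 0.29, edgeR adjusted p = 0.0105). The small heat shock gene *Hsp67Bc* had 87.4, 72.2 and 75.5 CPM in the isoA controls and 40.4 to 53.0 CPM in the isoB controls (0.75, edgeR adjusted p = 0.00646), and lost its call with the length trend removed (0.47, edgeR adjusted p = 0.0562) or without isoA control 1 or isoB control 4. The nuclear RNA *lncRNA:Hsromega*, which is also induced by heat, was higher at 1.00 (SE 0.11, edgeR adjusted p = 0.00216). Between the nulls, 12 genes of the list were lower and 1 higher in the isoA null than in the isoB zygotic null, while *lncRNA:Hsromega* was higher there too (0.83, edgeR adjusted p = 0.0183) and *Hsp67Bc* was at -0.017. Among the genes of the list named here, the interaction of edgeR was called for *Hsp68* (adjusted p = 3.71e-05), *Hsp83* (adjusted p = 0.00463) and *Stip1* (adjusted p = 0.0137). It was not called for *Hsp67Bc* (edgeR adjusted p = 0.0597), and the interactions of the other members are not given. *Hsp68* had 2.71 ± 0.208 CPM (SD, n = 3) in the isoA null and 205 ± 126 CPM (SD, n = 4) in the isoB zygotic null.

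Genes for detoxification enzymes were called in both directions. Of 62 cytochrome P450 genes tested, 9 were higher and 2 lower (17.7% called), with a median log2 fold change of 0.08. There were 6 higher and 2 lower with the length trend removed (median 0.047), and leaving out single samples gave 6 to 9 higher and 1 to 4 lower. *Cyp4p2* (2R, 9237512 to 9239831) had 102, 62.2 and 86.7 CPM in the isoA controls and 4.91, 4.88, 4.44 and 5.67 CPM in the isoB controls, a log2 fold change of 4.09 (SE 0.18, edgeR adjusted p = 2.29e-05). Its tandem neighbour *Cyp4p1* had 31.7, 11.6 and 17.9 CPM in the isoA controls and 3.62, 3.53, 3.25 and 2.15 CPM in the isoB controls (2.74, SE 0.33, edgeR adjusted p = 0.00258). *Cyp4p2* was also higher in the isoA null (6.29 ± 3.55 CPM, SD, n = 3) than in the isoB zygotic null (2.3 ± 0.707 CPM, SD, n = 4), by less than between the controls (interaction 2.60, edgeR adjusted p = 0.0147). *Cyp6a16* had 6.96, 7.22 and 5.97 CPM in the isoA controls and 17.4, 15.9, 15.9 and 16.9 CPM in the isoB controls, and was lower at -1.27 (SE 0.14, edgeR adjusted p = 0.00194). Of 33 glutathione S-transferase genes, 7 were higher and none lower (21.2% called), with a median of 0.47. With the length trend removed 2 were called, and 4 to 9 with single samples left out. *GstE7* had 23.2, 24.0 and 23.4 CPM in the isoA controls and 6.32, 5.52, 4.04 and 5.36 CPM in the isoB controls (2.17, SE 0.17, edgeR adjusted p = 0.000426, and 1.84 with the trend removed). *GstE5* was higher at 1.84 (SE 0.20, edgeR adjusted p = 0.00178), and *GstD7*, with 1.72, 0.367 and 18.2 CPM in the isoA controls, was not called without isoA control 3 (edgeR adjusted p = 0.347). The members of these families are similar in sequence, and reads shared between close copies are uncertain. Of the peroxiredoxin genes, *Prx6b* had 11.9, 7.59 and 21.1 CPM in the isoA controls and 1.32 to 1.80 CPM in the isoB controls (3.08, SE 0.33, edgeR adjusted p = 0.00178).

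Cuticle genes, whose expression begins within the collection window, did not move together. Of 47 genes of the Cpr family tested, 5 were higher and 2 lower (14.9% called, median -0.16). Of 43 Tweedle, Lcp, Ccp and Edg genes, 2 were higher and 3 lower (11.6% called, median -0.15). The Cpr family had 3 higher and 3 lower with the length trend removed (median -0.45), and the others 1 higher and 3 lower (median -0.40). Fits without single samples gave 2 to 7 higher and 0 to 5 lower in the Cpr family, and 1 to 4 in either direction in the others. *TwdlQ* had 16, 12.2 and 5.97 CPM in the isoA controls and 69.1, 79.7, 78.9 and 66.5 CPM in the isoB controls, a log2 fold change of -2.66 (SE 0.28, edgeR adjusted p = 0.00167), against -0.14 between the nulls (edgeR interaction test, adjusted p = 0.0384). *Lcp65Ae* had 201, 157 and 124 CPM in the isoA controls and 34.0, 65.3, 86.3 and 46.4 CPM in the isoB controls (1.50, SE 0.29, edgeR adjusted p = 0.0127), but was not called with the length trend removed (1.04, edgeR adjusted p = 0.0592). *Cpr67B* had 79.1, 5.39 and 28.5 CPM in the isoA controls and 1.27 to 3.62 CPM in the isoB controls (4.11, SE 0.73, edgeR adjusted p = 0.0103). The order of the isoA controls thus differed between cuticle genes, replicate 2 being lowest for *Cpr67B* and replicate 3 for *TwdlQ* and *Lcp65Ae*. No gene of the Osiris family, which is expressed in the cuticle-forming epidermis, was called among 17 (edgeR; 2 at an unadjusted p below 0.05, and 0 called by DESeq2 or limma-voom). Of 28 trypsin and Jonah peptidase genes counted, 13 passed the filter on low counts and were tested. Of these, 5 were higher and 1 lower (46.2% called), with a median of 0.86. *Jon99Fi* had at most 2 counts in any isoB control and passed the filter through the isoA controls. The number called and the median of these peptidase genes therefore depend in part on the filter. There were 2 to 5 higher with single samples left out, and 3 higher and 1 lower with the length trend removed (median 0.53). *Jon25Biii* had 20.0, 21.4 and 83.7 CPM in the isoA controls and 5.99, 3.71, 2.50 and 1.80 CPM in the isoB controls (3.6, SE 0.58, edgeR adjusted p = 0.00773). *Jon65Aiii* had 17.1, 19.3 and 24.4 CPM in the isoA controls and 36.6, 54.7, 32.5 and 30.5 CPM in the isoB controls (-0.90, SE 0.22, edgeR adjusted p = 0.0258), and lost its call without isoA control 1 or 2. The digestive trypsin gene *betaTry* had 0.156, 0.979 and 29.0 CPM in the isoA controls, so that its call rested on replicate 3.

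Of 18 hemocyte genes tested, 3 were higher and none lower (16.7% called), while 7 of the 18 had positive values (median -0.21). Again 3 were higher with the length trend removed (median -0.038), and leaving out single samples gave 2 to 4 higher. *NimC1*, a phagocytosis receptor of plasmatocytes, had 13.5, 13.5 and 10.3 CPM in the isoA controls and 2.49, 3.16, 2.68 and 3.78 CPM in the isoB controls (log2 fold change 2.06, SE 0.21, edgeR adjusted p = 0.00155). *PPO1*, the prophenoloxidase of crystal cells, had 235, 177 and 196 CPM in the isoA controls and 115, 113, 101 and 114 CPM in the isoB controls (0.90, SE 0.11, edgeR adjusted p = 0.00258). The scavenger receptor *crq* had 35.7, 49.2 and 57.3 CPM in the isoA controls and 25.4 to 31.8 CPM in the isoB controls (0.72, edgeR adjusted p = 0.0199), and lost its call in 4 of the 7 fits with a sample left out. In whole embryos, a difference in the number of cells of a type and in the RNA per cell cannot be told apart. Of 15 antimicrobial peptide and recognition genes, 3 were higher and 1 lower (26.7% called), and 1 was higher and 1 lower with the length trend removed. Without single samples 1 to 3 were higher. *Drsl5*, a drosomycin-like gene, had 175, 165 and 212 CPM in the isoA controls and 62.9, 52.2, 44.7 and 63.7 CPM in the isoB controls (1.75, SE 0.15, edgeR adjusted p = 0.000491). *BomS2* was at 26.9 CPM in isoA control 1 and at 0.490 and 3.26 CPM in isoA controls 2 and 3, and its call rested on replicate 1. The Spätzle-processing enzyme gene *SPE*, which acts upstream of Toll, had 39.8, 20.1 and 31.1 CPM in the isoA controls and 7.19, 8.68, 9.93 and 8.26 CPM in the isoB controls (1.86, SE 0.22, edgeR adjusted p = 0.00241), against -0.15 between the nulls (edgeR interaction test, adjusted p = 0.00174).

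**Figure D4:**
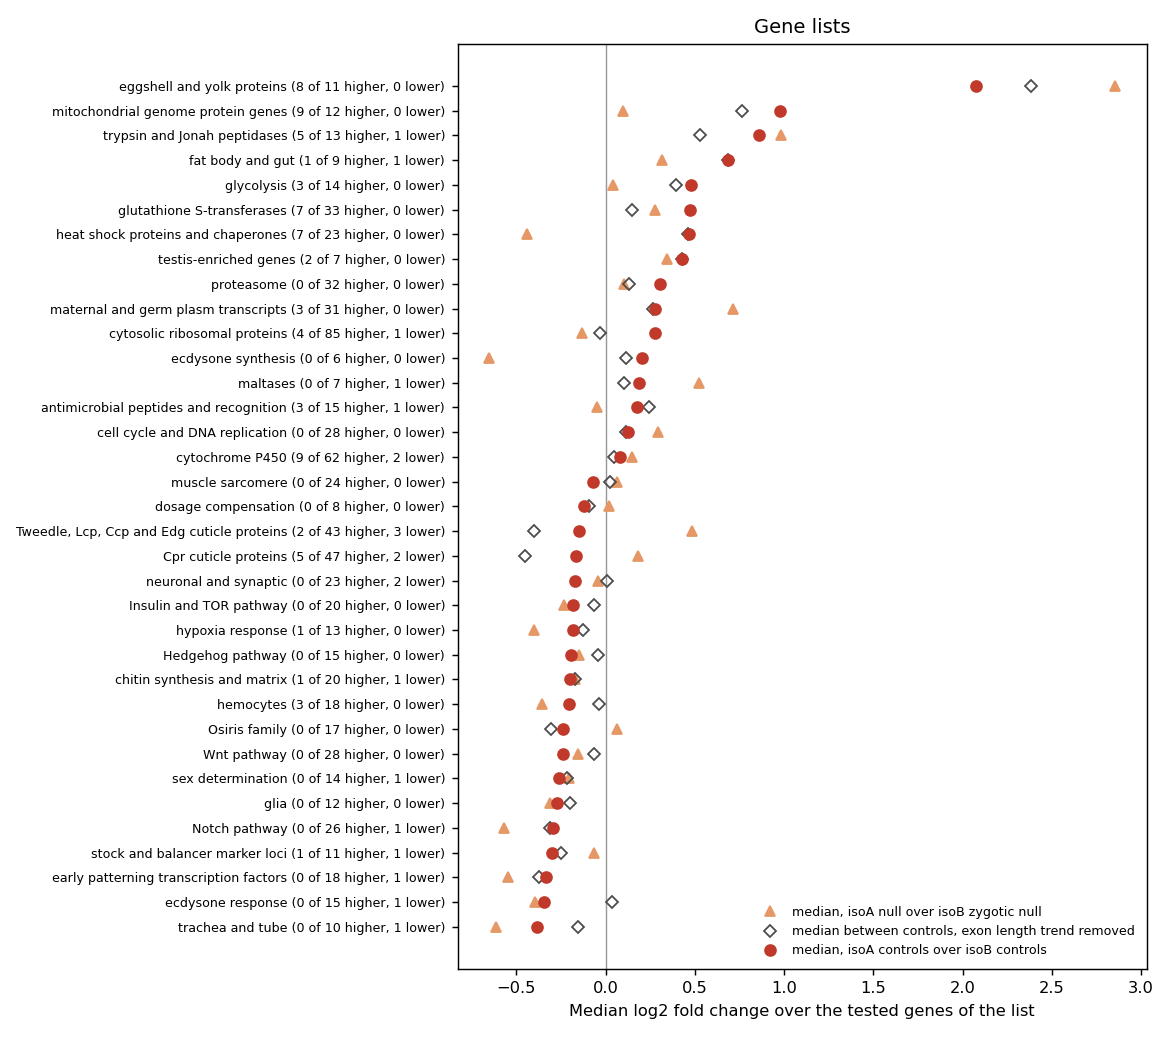
Median log2 fold change (x) of the tested genes of each list with at least 5 tested genes (y), for isoA controls over isoB controls (filled circles), the same with the exon length trend removed (open diamonds) and isoA null over isoB zygotic null (triangles). The numbers beside each name are the genes called between the controls. Eggshell and yolk protein genes have the highest median, 2.08, and trachea and tube genes the lowest, -0.38. The eggshell median depends in part on the filter on low counts, which some of its genes passed through the isoA controls.

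Signalling pathways and most tissue lists had medians slightly below 0 and few calls. Over all genes tested 7.97% were called, and 4092 of 10324 had an unadjusted p below 0.05. The counts in these lists were not tested against those shares. None of 28 Wnt pathway genes was called (edgeR; 12 at an unadjusted p below 0.05, 0 called by DESeq2 or limma-voom), with a median of -0.24 that was -0.07 with the length trend removed. None of 15 Hedgehog genes was called (6 at an unadjusted p below 0.05) and none of 20 insulin and TOR genes (9 at an unadjusted p below 0.05), and DESeq2 and limma-voom called 0 in each. Of 26 Notch pathway genes, 1 was lower, the Enhancer of split gene *E(spl)m5-HLH*, with 1.72, 2.69 and 1.90 CPM in the isoA controls and 3.34 to 4.17 CPM in the isoB controls (-0.85, edgeR adjusted p = 0.0423). This call was kept in 1 of the 7 fits with a sample left out, the one without isoA control 2, with adjusted p up to 0.109 in the others. Removal of the length trend gave 4 lower Notch pathway genes, at a median of -0.31 against -0.30 before. None of 24 muscle sarcomere genes (8 at an unadjusted p below 0.05), 12 glial genes (6) and 28 cell cycle and DNA replication genes (3) was called by edgeR, DESeq2 or limma-voom. In these lists and in the Wnt, Hedgehog and insulin lists none was called with the length trend removed, while 4 cell cycle genes were higher without isoA control 1. Of 23 neuronal and synaptic genes 2 were lower, both of them X-linked ion channel genes with long transcripts. The sodium channel gene *para* had 101, 78.0 and 59.9 CPM in the isoA controls and 154, 153, 194 and 148 CPM in the isoB controls (-1.0, SE 0.17, edgeR adjusted p = 0.00979). The potassium channel gene *Sh* had 53.4, 45.8 and 39.4 CPM in the isoA controls and 83.4, 85.7, 96.4 and 88.9 CPM in the isoB controls (-0.91, SE 0.12, edgeR adjusted p = 0.00313). With the length trend removed they were at -0.57 and -0.41 and were not called.

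Single regulators outside these lists, chosen after their values were seen, had lower levels in the isoA controls with little spread. *tkv* (FBgn0003716, 2L, 5219000 to 5271384), a type I receptor for the morphogen Dpp, had 166, 167 and 155 CPM in the isoA controls and 317, 337, 354 and 376 CPM in the isoB controls. Its log2 fold change was -1.06 (SE 0.09, edgeR adjusted p = 0.000491), -0.91 with the length trend removed, and -1.01 between the nulls. *sgl*, which encodes the UDP-glucose dehydrogenase needed for heparan sulphate synthesis, had 134, 130 and 128 CPM in the isoA controls and 259, 264, 253 and 261 CPM in the isoB controls (-0.96, SE 0.07, edgeR adjusted p = 0.000426), and was at -0.89 between the nulls. The calcium-activated potassium channel gene *SK* had 60.3, 49.5 and 49.2 CPM in the isoA controls and 100.4, 101, 110 and 106 CPM in the isoB controls (-0.95, SE 0.10, edgeR adjusted p = 0.00178), and with the length trend removed it was at -0.59 and was not called. The neural zinc finger gene *nerfin-1* had 40.7, 37.0 and 36.8 CPM in the isoA controls and 63.0, 72.3, 81.6 and 93.1 CPM in the isoB controls (-1.0, SE 0.14, edgeR adjusted p = 0.00432). *Dh31-R*, a neuropeptide receptor gene, had 11.4, 11.8 and 11.2 CPM in the isoA controls and 29.2, 34.3, 32.4 and 31.4 CPM in the isoB controls (-1.44, SE 0.11, edgeR adjusted p = 0.000434), but -0.15 between the nulls, and the difference of these differences was called (edgeR interaction test, adjusted p = 0.00894). The zinc transporter gene *ZnT35C* was lower at -1.22 (SE 0.16, edgeR adjusted p = 0.00372) and at -2.07 between the nulls.

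Other genes chosen in the same way were higher in all isoA controls. *eIF4E3*, a member of the cap-binding eIF4E family, had 29.8, 20.2 and 31.6 CPM in the isoA controls and 2.79, 3.35, 3.25 and 2.59 CPM in the isoB controls (log2 fold change 3.22, SE 0.19, edgeR adjusted p = 9.99e-05). *phr*, the photolyase that repairs DNA in light, had 18.5, 13.2 and 23.8 CPM in the isoA controls and 1.79, 1.99, 2.06 and 2.28 CPM in the isoB controls (3.21, SE 0.22, edgeR adjusted p = 0.000312). The serpin gene *Spn42De* had 34.4, 27.4 and 44.0 CPM in the isoA controls and 2.37 to 5.24 CPM in the isoB controls (3.39, SE 0.28, edgeR adjusted p = 0.000457). These 3 were also higher in the isoA null than in the isoB zygotic null, at 3.90, 1.05 and 1.52. *CG10764* was lower in both comparisons, at -3.82 (SE 0.30, edgeR adjusted p = 0.000426) and -4.27. The pseudogene *CR43669* had 5.63, 3.8 and 4.16 CPM in the isoA controls and at most 0.181 CPM in the isoB controls, but 0.209 ± 0.106 CPM (SD, n = 3) in the isoA null.

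Called genes were spread over the autosomes. On 2R 207 of 2057 genes were called (10.1%), on 2L 174 of 1812 (9.60%), on 3R 196 of 2548 (7.69%) and on 3L 154 of 2056 (7.49%), and 1 of 87 on chromosome 4 (1.15%). In windows of 500 kb with at least 10 genes tested, the highest share was 25.8% (8 of 31 genes) from 2000001 to 2500000 of 3L, where the median over 236 windows was 7.46%. Of these 8, *CG15879*, *CG5704*, *CG13806*, *CG8993*, *mRpL23*, *CG9004*, *CG15877* and *CG1146*, 6 were higher and 2 lower. The calls of *CG15879*, *CG5704*, *CG8993* and *mRpL23* were lost with the length trend removed. So were those of *mRpL48*, *CG17650*, *erm*, *CG15362* and *RpL38* of the windows named next. The next windows were 4500001 to 5000000 of 2R (3 of 13 genes, with *RpL38*, *lncRNA:dntRL* and *CG44102*) and 1500001 to 2000000 of 2L (7 of 32 genes, among them *Eno*, *mRpL48* and *erm*).

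The nulls give the same pair of collection schemes in separate libraries, with the *sgg* genotype and possibly the stock background differing as well. In them 1109 of 10665 genes were called (10.4%), 676 higher (6.34%) and 433 lower (4.06%) in the isoA null. Of the 823 genes called between the controls, 791 were also tested between the nulls, and 677 of these (85.6%) had the same sign, against 67.7% of the 10259 genes tested in both. In both comparisons 251 genes were called in the same direction, 166 higher and 85 lower, which is 30.5% of the calls between controls and 22.6% of those between nulls, and 7 were called in opposite directions, *Hsp68* among them. The exon length medians of the nulls, 0.26 in the shortest class and -0.16 in the longest, point the same way as those of the controls, and their part in the shared signs was not tested. Of the 282 genes called whichever control sample was left out, 266 were tested between the nulls and 122 were called there in the same direction. The interaction was called for 280 of 11021 genes (2.54%), of which 73 were also called between the controls, such as *Mal-B1*, *asRNA:CR45600*, *vis*, *SPE* and *Hsp68*. No sample is shared between these comparisons.

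**Figure D5:**
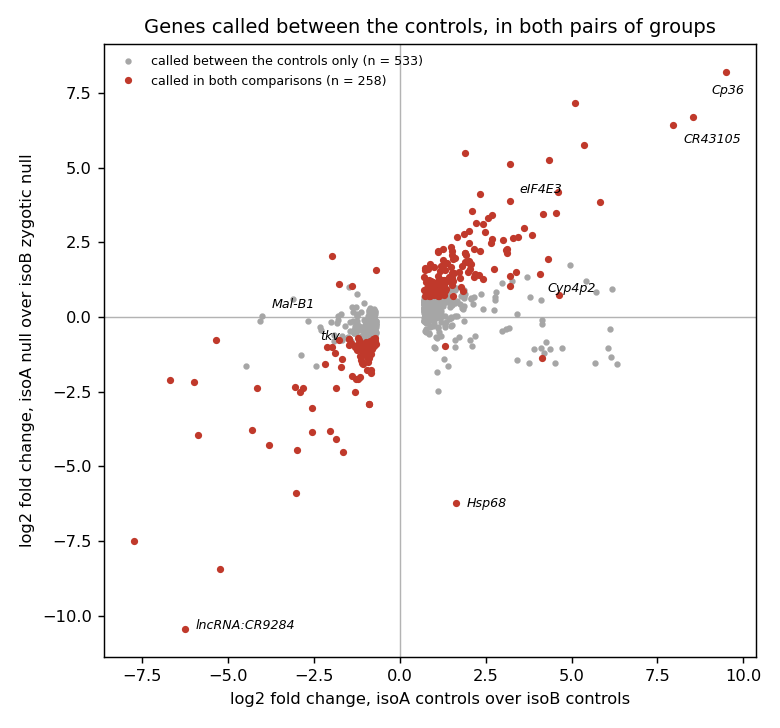
Log2 fold change of isoA null over isoB zygotic null (y) against that of isoA controls over isoB controls (x) for the 791 genes called between the controls and tested in both. Red points (258) were called in both comparisons, 251 of them in the same direction, and grey points (533) between the controls only. *Hsp68* lies on opposite sides, and fitted values of genes with no or few counts in a group, such as *Cp36*, depend on the prior count of the fit.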

How the data were processed

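RNA-seq counts of 7 control samples were compared, and 7 null samples served as a second pair of groups. The authors aligned single-end reads of poly(A) RNA from a directional kit with TopHat2 2.1.1 and Bowtie2 2.3.4.0 and counted reads on exons with Rsubread over the FlyBase annotation dmel_r6.20. Its defaults take no account of strand and discard reads that fall on several genes. The deposited table holds raw counts for 17493 genes with no normalization. The authors' 2 tables of limma-voom results (edgeR 3.14.0, limma 3.28.21) hold their own log2 expression values, fold changes and p-values and were not used.

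Counts were analysed with R 4.3.3 and edgeR 4.0.16: filterByExpr (minimum count 10, minimum total 15), TMM scaling and the two-sided quasi-likelihood test on the 7 control samples, with Benjamini-Hochberg adjustment over all genes tested. Fold changes are isoA controls over isoB controls, and a call required an adjusted p no higher than 0.05 together with a log2 fold change whose size was 0.7 or more, as in the study. The nulls were tested in the same way, and the difference of both differences by an interaction contrast over all 14 samples. Levels are CPM with TMM factors over the 14 samples. Where a group had at most 3 counts in each library, the fold is a lower bound set by 3 counts per library. Single values per sample were compared by exact permutation, which for 3 against 4 samples cannot go below p = 0.0571. Intervals of counting error were not used.

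Named genes were the 8 largest rises and 8 largest falls among called genes without overlap of the groups and with a mean of at least 1 CPM, *sgg*, sex and marker loci, the called member with the smallest adjusted p in each list and direction, the 10 most abundant genes per kb and the called genes of 3 windows of 500 kb. Other genes were chosen after their values were seen: the genes set beside these as further examples, as neighbours, or as carried by single libraries. The samples, the gene lists and the rules were chosen with earlier results of these data known. The 37 lists were written from gene symbols.

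Alternatives were other scalings and filters, DESeq2 1.42.0, limma-voom (limma 3.58.1), a fit of all samples, thinning to equal depth, leaving out each sample and, added after the data were seen, offsets that remove the trend of each sample on exon length. The procedures were tested on simulated data. Of the identifiers, 17362 matched an Ensembl annotation of Release 6, later than that of the authors, from which positions, symbols and exon lengths were taken. All columns of the count table were used.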

Additional observations from a re-analysis of the deposited data

Results flagged for a closer look

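The difference between the controls differed from that between the nulls, by the interaction test of edgeR at an adjusted p of at most 0.05, for 24 of the named genes. Each value is the log2 fold change of isoA controls over isoB controls less that of isoA null over isoB zygotic null. Among the genes with the largest changes between the controls it was 10.07 for *lcs*, 6.55 for *vis*, 5.46 for *CR43669*, -4.08 for *Mal-B1*, -4.60 for *asRNA:CR45600*, -3.87 for *CG18367* and -3.98 for *CG44102*, where values of genes with few or no counts in a group depend on the prior count of the fit. Among cuticle genes it was 5.99 for *Cpr47Eb*, 5.09 for *Cpr67B*, -4.07 for *Cpr5C* and -2.54 for *TwdlQ*, and the chorion gene *Cp15* had -3.61. Among chaperones it was 7.83 for *Hsp68*, 1.71 for *Hsp83* and 0.96 for *Stip1*. For immune and blood cell genes it was 1.99 for *SPE*, 1.45 for *NimC1* and 0.66 for *PPO1*. The others were *Cyp4p2* (2.60), *phr* (2.14), *ZnT35C* (0.82), *SK* (0.81), *eEF1alpha1* (0.73) and *Dh31-R* (-1.32).

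Within the isoB controls, 1 sample lay far from the other 3 by Dixon's criterion for 9 of 123 genes checked, where chance alone gives about 1 in 20. In isoB control 4 these were *Cys* (3.12 CPM), *lncRNA:roX1* (444 CPM), the proneural gene *ac* (5.82 CPM, with at most 0.395 CPM in the others) and *CG7290* (1.46 CPM). In isoB control 6 they were *exu* (14.4 CPM), *RpL27A* (1761 CPM), *Cyp6a19* (3.29 CPM), *para* (194 CPM) and *PPO1* (101 CPM).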

How the results depend on the processing

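Of the 823 genes called between the controls, the count was 440 with the exon length trend removed and 2180 on the adjusted p alone. It ranged from 369 without isoB control 7 to 1162 without isoA control 1, with fewer samples in each fit, and from 728 (thinned) to 1030 (fit of all samples) over the other scalings, filters and tools, including 935 by DESeq2 and 746 by limma-voom. With upper quartile scaling the median log2 fold change of all genes was 0.10, against 0.03 with TMM. The 1109 calls between the nulls ranged from 731 without isoA null 1 to 1215 without isoB zygotic null 4. With the replicate block on 3 against 3 null samples there were 1055 calls, and 1215 without the block. Pairs of the same number did not deviate together (correlations -0.10, -0.17 and 0.20). No paired analysis was possible between the controls because the groups share no replicate numbers. The interaction was called for 239 genes by limma-voom and 307 with another scaling. The X chromosome share stayed lower in the isoA controls, by -0.83 to -0.69 percentage points with single samples left out.

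Directions turned only for genes that were not called or whose call rests on 1 library, and the cause was not tested. With the length trend removed the log2 fold change was -0.22 for *tra*, -0.085 for *RpL27A*, -0.040 for *RpLP1*, -0.017 for *RpS27A*, -0.045 for *RpL23* and -0.054 for *CG3987*, and without a filter it was -0.0019 for *achi*. Leaving out single samples gave ranges of -0.075 to 0.18 for *tra*, -0.62 to 0.24 for *sc*, -0.28 to 0.11 for *v*, -0.24 to 0.0025 for *Osi6* and -0.18 to 0.17 for *achi*, none of them called. The 3 genes carried by isoA control 3 ranged from -0.15 to 4.71 (*betaTry*), -0.30 to 4.70 (*CG7299*) and -0.054 to 6.75 (*CG32603*). Of the 117 named genes called, 71 kept the call whichever sample was left out and 74 under all other settings run. Genes near 3 counts per library are limited by depth, chiefly in the isoA controls, which were sequenced less deeply.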
